A study of Mus musculus with 22 samples.

Results

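The blood-testis barrier is built by neighbouring Sertoli cells, the somatic cells that nurse the germ cells inside the seminiferous tubules, and the genes of its junctions are described here in whole testes of mice with and without the transcription factor MLX. The 9 genes were chosen by name from the 17931 gene symbols of the testis RNA-seq count table: the claudins *Cldn11*, *Cldn3*, *Cldn5* and *Cldn12*, occludin (*Ocln*), the junctional adhesion molecules *F11r* and *Jam3*, the scaffold *Tjp1* and the gap junction channel *Gja1*. All 9 passed the filter on low counts. RNA was sequenced from 3 wild-type (WT) males and 3 MLX KO males in 6 libraries. MLX is a partner in dimers with MondoA and ChREBP, which respond to glucose and other nutrients, and the study asked how its loss alters gene expression in the testis. The males were age-matched littermates in 3 pairs, aged 7 months. The WT males were proven fertile breeders. The MLX KO males carried the constitutive *Mlx* deletion of exons 3 to 6, which encode the region for dimerization and DNA binding. That allele was made in 129S4 AK7 embryonic stem cells, and the loxP-flanked exons were deleted by a Meox2-Cre line that was then crossed out. MLX was therefore deleted in Sertoli cells, germ cells and all other cells alike.

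The barrier divides the tubule into a basal compartment, where spermatogonia divide, and an adluminal compartment, where meiosis and spermatid formation take place out of reach of blood-borne molecules and immune cells. It differs from other epithelial barriers in that tight junctions, gap junctions, desmosomes and an actin-rich adherens junction, the ectoplasmic specialization, are intermingled in the same stretch of membrane, and in that it opens and closes again as preleptotene spermatocytes pass. Claudins seal the gap between cells and set what may pass. Occludin and the junctional adhesion molecules span the membrane beside them. Scaffold proteins with PDZ domains tie these membrane proteins to actin, and connexin channels couple neighbouring cells.

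In MLX KO testes, 6 of the 9 genes were higher than in WT, 1 was lower, and 2 did not pass the test (quasi-likelihood test of edgeR on 14640 genes, Benjamini-Hochberg adjusted p under 0.05). *Cldn11*, the claudin without which mouse Sertoli cells form no tight junction strands, rose 1.73-fold. *Gja1*, *F11r*, *Cldn5*, *Cldn12* and *Jam3* rose by between 1.23-fold and 1.51-fold, whereas *Cldn3* fell to 0.719 of its WT level. The 2 genes that did not pass were *Ocln* and *Tjp1*. Of all genes tested, 24.8% were higher and 20.6% lower by the same rule, so changes in either direction were common in these testes. The libraries of the 2 genotypes did not overlap for 8 of the 9 genes, as was the case for 56.2% of all genes tested. The median log2 fold change (LFC, MLX KO against WT) was 0.39 over the 9 genes and 0.03 over all genes.

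The libraries held between 16674678 and 19742726 counts, and levels are given as CPM, the counts scaled to library sizes that were adjusted by TMM factors. The count of *Mlx* was between 96 and 128 in the WT libraries and between 94 and 109 in the KO libraries (LFC of -0.18, SE 0.14, edgeR adjusted p = 0.326). These counts cover exons that the targeting kept and a 3′ end shared with *Psmc3ip*, so they do not check the genotype, and every direction below is that of the libraries labelled KO. Of 12 Sertoli cell markers, 12 were higher in KO libraries (against 24.8% of all genes tested), with a median LFC of 0.69. Their summed level was 1474 to 1525 CPM in WT and 2193 to 2678 CPM in KO, with *Clu* (LFC of 0.78) and *Ctsl* (0.80) the most abundant. All 9 elongating spermatid markers were lower (against 20.6% of all genes tested). Their summed level was 21347 to 22298 CPM in WT and 12518 to 15425 CPM in KO. The library KO1 had the lowest sum of Sertoli cell markers and the highest sum of elongating spermatid markers among the KO libraries. CPM is a share of the RNA of a library. In whole tissue, more cells of a type, more RNA per cell and less RNA from other cells cannot be told apart.

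*Cldn11* and *Cldn3* together held most of the claudin reads and moved in opposite directions, so the sequence before their start sites is shown. The 100 bases upstream of each RefSeq start site (GRCm38.p6, the assembly of mm10, both genes on the plus strand) are printed 5′ to 3′, with each CG dinucleotide in capitals. They lie at chr3:31149820-31149919 and chr5:134986114-134986213.
Cldn11: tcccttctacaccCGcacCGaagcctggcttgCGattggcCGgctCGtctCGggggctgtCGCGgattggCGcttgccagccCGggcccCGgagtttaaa
Cldn3: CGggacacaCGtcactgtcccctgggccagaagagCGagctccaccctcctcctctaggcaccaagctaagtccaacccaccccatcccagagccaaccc

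The *Cldn11* stretch held 11 CG dinucleotides and the *Cldn3* stretch 3, at a similar GC content of 67.0% and 64.0%. RefSeq windows of 300 bases, with 250 before and 50 after the start site, were at hand for 8 of the 9 genes, 11 windows in all because *Cldn12* has 3 and *Ocln* 2. Their GC content ranged from 45.3% to 68.0% (median of all promoters 52.7%) and their CG count from 8 in *Gja1* to 31 in *Tjp1* (median of all promoters 7). The letters CACGTG, the E-box that dimers of MLX recognize, were found on neither strand of these 11 windows. Of all 32851 promoter windows, 7.15% held them. A missing match says only that these letters are not in this window.

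*Cldn11* (chr3:31149920-31164326, mm10) had 74.0, 70.8 and 69.3 CPM in WT1, WT2 and WT3, and 116, 130 and 125 CPM in KO1, KO2 and KO3. Every KO library lay above every WT library, and the highest WT value was well under the lowest KO value. Its LFC was 0.79 (SE 0.06, edgeR adjusted p = 4.18e-06), with 0.64, 0.88 and 0.85 in the 3 littermate pairs. It stayed past the threshold in all 14 alternative fits, between 0.76 and 0.93. Of all genes tested, 90.2% had a smaller LFC.

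*Cldn3* (chr5:134986214-134987476) encodes a sealing claudin that Sertoli cells place in newly forming strands. It had 48.4, 46.5 and 52.7 CPM in the WT libraries and 34.7, 37.0 and 34.6 CPM in the KO libraries. It was the one claudin of the 4 that was lower in every pair, with LFCs of -0.48, -0.33 and -0.61. The fitted LFC was -0.48 (SE 0.07, edgeR adjusted p = 2.30e-04), and it stayed past the threshold and below 0 in all 14 alternative fits, from -0.51 to -0.34. Of all genes tested, 3.46% had a smaller LFC. The antisense gene *Wbscr25* overlaps *Cldn3*, and since the strandedness of the counting is not stated, reads of the 2 genes cannot be told apart.

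*Cldn5* (chr16:18776847-18778262) is the main claudin of endothelial cells and is also made by Sertoli cells. It had 7.80, 6.61 and 6.54 CPM in WT and 10.5, 9.79 and 8.10 CPM in KO. The groups were separated only narrowly, by WT1 and KO3. The LFC was 0.43 (SE 0.13, edgeR adjusted p = 0.0203). The call was lost with DESeq2 (adjusted p = 0.0568), with DESeq2 and the pair as a block (adjusted p = 0.135), and on leaving out WT2, WT3, KO1 or KO2 (edgeR adjusted p from 0.0572 to 0.0720). Of the 8 endothelial cell markers, 2 rose (25%, against 24.8% of all genes tested) and none fell. Their summed level was 27.8 to 33.3 CPM in WT and 41.5 to 44.7 CPM in KO. Their part in the *Cldn5* result was not tested.

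*Cldn12* (chr5:5505015-5514976), a claudin that lacks the PDZ-binding tail of the others, was the least even of the 9 genes among WT libraries. It had 12.0, 8.01 and 8.74 CPM in WT and 13.5, 12.1 and 12.2 CPM in KO, so that WT1 almost reached the KO values. The LFC was 0.39 (SE 0.14, edgeR adjusted p = 0.0417). The call was lost with the size factors of DESeq2 in edgeR (adjusted p = 0.0513), with DESeq2 (adjusted p = 0.0703), with DESeq2 and the pair as a block (adjusted p = 0.109) and on leaving out any library other than WT1 (edgeR adjusted p from 0.0647 to 0.160). When edgeR was given the pair as a block, the adjusted p was 0.00960.

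*Ocln* (chr13:100496504-100552718) encodes a tight junction protein whose loss in mice ends in testicular atrophy. It had 6.33, 5.91 and 6.71 CPM in WT and 7.17, 7.36 and 7.36 CPM in KO. The groups did not overlap and each pair showed a higher KO value, yet the LFC of 0.21 did not pass the test (95% interval from -0.05 to 0.46, edgeR adjusted p = 0.170).

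The junctional adhesion molecules, immunoglobulin-like proteins at the tight junction, rose in both cases. *F11r* (chr1:171437561-171464593), which encodes JAM-A, had 25.9, 23.9 and 20.9 CPM in WT and 31.4, 38.3 and 36.2 CPM in KO. The pair of WT1 and KO1 differed least, and the LFCs of the pairs were 0.27, 0.68 and 0.79. The fitted LFC of *F11r* was 0.58 (SE 0.10, edgeR adjusted p = 7.38e-04). *Jam3* (chr9:27097384-27155421) encodes JAM-C, which spermatids also use to polarize. It had 35.4, 35.5 and 39.6 CPM in WT and 43.6, 46.2 and 46.1 CPM in KO. Its rise was the smallest that passed the test, with an LFC of 0.30 (SE 0.06, edgeR adjusted p = 0.00344). Both genes passed in all 14 alternative fits. The antisense gene *Gm48796* overlaps *Jam3*, which limits it in the way described for *Cldn3*.

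*Tjp1* (chr7:65296165-65527850) encodes zonula occludens 1, the PDZ scaffold on which claudin strands are assembled, and was the gene of the 9 with most counts in WT. It had 118, 115 and 115 CPM in WT and 125, 117 and 116 CPM in KO, with overlapping groups. The LFC was 0.04, its 95% interval ran from -0.06 to 0.15, and the edgeR adjusted p was 0.496. A rise of the size seen for *Cldn11* lay outside that interval.

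*Gja1* (chr10:56377300-56390419) encodes connexin 43, the main gap junction protein between Sertoli cells and between Sertoli and germ cells. It had 56.3, 55.5 and 52.9 CPM in WT and 73.2, 85.0 and 89.7 CPM in KO. All KO libraries were above the WT libraries, and KO1 was the closest to them. The LFC was 0.59 (SE 0.07, edgeR adjusted p = 1.09e-04), the pairs gave 0.38, 0.61 and 0.76, and the call held in all 14 alternative fits. For *Cldn11*, *F11r* and *Gja1*, KO1 had the lowest KO value and its pair gave the smallest of the 3 differences. That pair also gave the smallest difference for *Cldn12*, but there KO1 had the highest KO value (13.5 CPM). WT1 had the highest WT value for each of these genes (12.0 CPM for *Cldn12*). Without KO1, 4 of the 9 genes stayed higher and *Cldn3* lower.

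**Figure D1:**
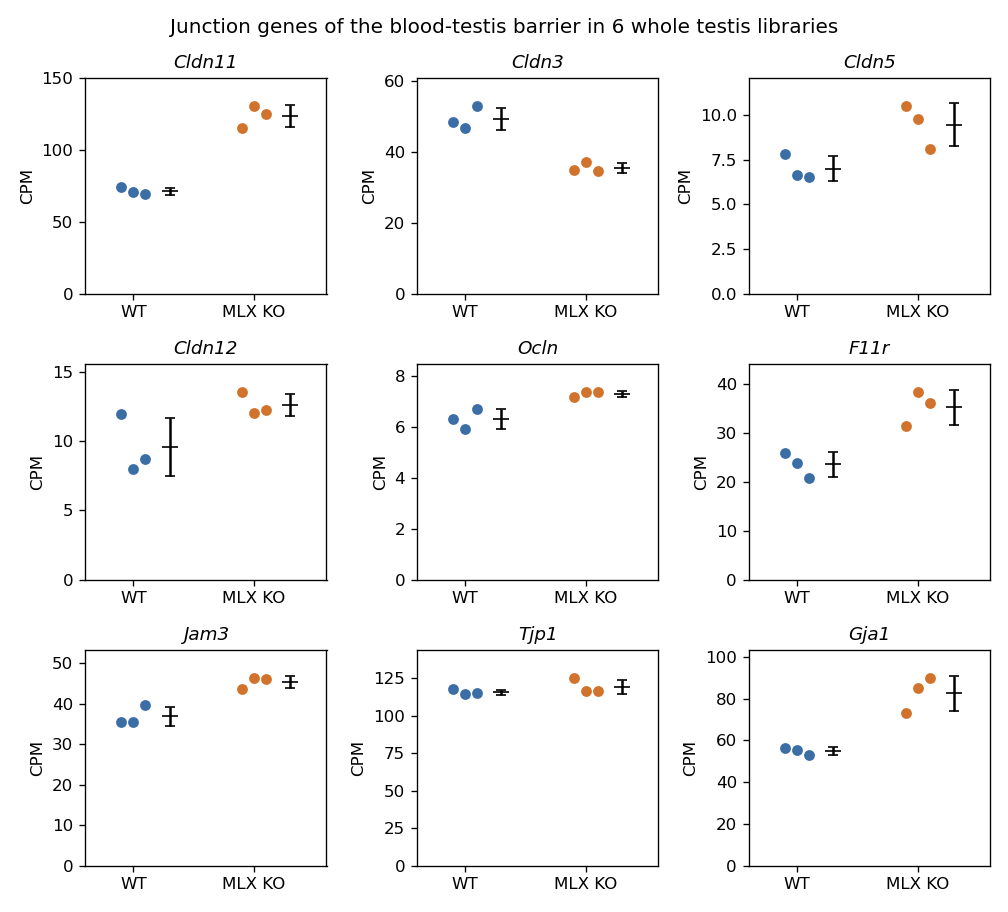
Level of each of the 9 junction genes in CPM (vertical axis from 0) in 3 WT (blue) and 3 MLX KO (orange) libraries, with points in the order of replicates 1 to 3 and the black mark and bar giving the mean and SD. *Cldn11* goes from about 69.3 to 74.0 CPM to 116 to 130 CPM, *Cldn3* is lower in every KO library, and only for *Tjp1* do the groups overlap.

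**Figure D2:**
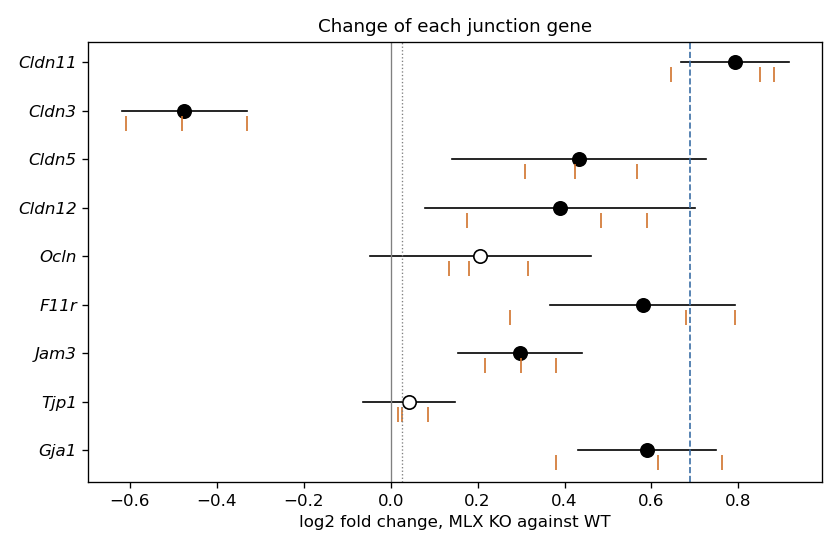
Log2 fold change, MLX KO against WT, of each gene (circle, filled where the edgeR adjusted p is under 0.05) with its 95% interval (black line) and the values of the 3 littermate pairs (orange ticks). The dotted line is the median of all genes tested (0.03) and the dashed blue line the median of 12 Sertoli cell markers (0.69). The circle of *Cldn11* is the only one to the right of the dashed line, and that of *Cldn3* the only one to the left of 0.

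The scaling of the libraries bears on the smaller changes. With library size alone in place of TMM, the median LFC of all genes moved up by 0.14, and 80.8% of calls were higher against 54.7% with TMM. *Ocln* (LFC of 0.34, edgeR adjusted p = 0.0379) and *Tjp1* (LFC of 0.18, edgeR adjusted p = 0.00513) then also counted as higher, for 8 higher and 1 lower among the 9. Relative to the shift of 0.14, *Tjp1* remained close to the median gene. *Cldn3* was lower, and *Cldn11*, *F11r*, *Jam3* and *Gja1* higher, under every scaling tried.

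A comparison within the claudin family does not depend on the scaling between libraries. The table has 21 claudins, and their CPM per kb of annotated exon was summed in each library. *Cldn11* held 43.0%, 43.3% and 40.6% of that sum in the WT libraries and 57.5%, 59.6% and 59.8% in the KO libraries. *Cldn3* held 41.8%, 42.3% and 45.9% in WT and 25.6%, 25.1% and 24.6% in KO. The pair thus had nearly equal shares in WT testes (42.3 ± 1.47% and 43.3 ± 2.26%, SD, n = 3) and unequal shares in KO testes (59.0 ± 1.25% and 25.1 ± 0.528%, SD, n = 3). For either share the 2 genotypes did not overlap, and the two-sided exact permutation test gave p = 0.1, the smallest that 3 against 3 libraries can give (0.2 after Benjamini-Hochberg adjustment over the 4 claudins). The level of *Cldn11* divided by that of *Cldn3*, a quantity chosen after the values were seen and not tested, was 0.980 ± 0.0821 in WT and 2.35 ± 0.0963 in KO (SD, n = 3).

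*Cldn5* held 5.46 ± 0.472% of the claudin sum in WT and 5.97 ± 0.879% in KO, and *Cldn12* 2.50 ± 0.498% and 2.67 ± 0.276% (SD, n = 3). For both, the libraries of the 2 genotypes overlapped (exact permutation p = 0.6, also 0.6 after adjustment). The direction for *Cldn12* turned without division by length (a difference of -0.0482 percentage points) and without WT2 (-0.00386). The other 17 claudins together held 6.41 ± 0.420% in WT and 7.27 ± 0.549% in KO.

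**Figure D3:**
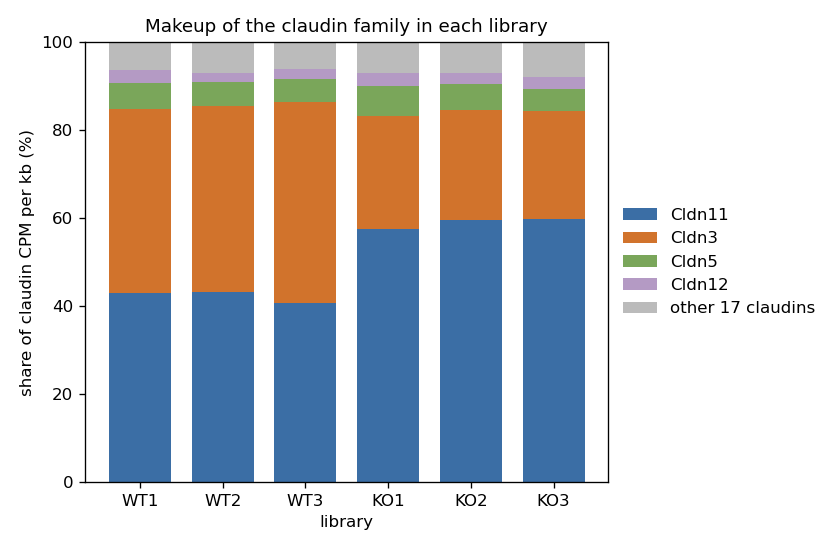
Makeup of the claudin family in each of the 6 libraries, as the percent of the summed CPM per kb of exon over 21 claudins (vertical axis, 0 to 100%). *Cldn11* (blue) grows from 40.6% to 43.3% in WT to 57.5% to 59.8% in KO, *Cldn3* (orange) shrinks from 41.8% to 45.9% to 24.6% to 25.6%, and the remaining claudins keep thin bands.

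Since the genes are known from Sertoli cells and the Sertoli cell markers were higher in KO libraries, each gene was also set beside 12 Sertoli cell markers of the same library, as the log2 CPM of the gene minus the mean log2 CPM of the markers. On that scale *Cldn11* was at 1.18, 1.11 and 1.09 in WT and 1.24, 1.20 and 1.17 in KO. The groups overlapped and the difference was 0.07 (exact permutation p = 0.2, 0.3 after adjustment over the 9 genes). The median log2 CPM of the markers in each library was also used in place of their mean. It is a median of levels and not the median LFC of 0.69. The difference for *Cldn11* was then 0.28 and the groups did not overlap (exact permutation p = 0.1, unadjusted), so its place beside the markers depends on how they are summarised. *Cldn3* was at 0.57, 0.50 and 0.70 in WT and at -0.50, -0.62 and -0.67 in KO, a difference of -1.19 (p = 0.1, the smallest possible in this exact test, 0.18 after adjustment), and of -0.98 with the median. *Cldn3* was thus lower on this scale in every pair. The values are not divided by gene length, so only their difference between the genotypes can be read.

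*Tjp1*, whose CPM hardly differed, was lower by this measure, with a difference of -0.67. *Ocln* differed by -0.51 and *Jam3* by -0.42, and for all 3 the libraries did not overlap (exact permutation p = 0.1, 0.18 after adjustment). *Cldn5* (-0.29), *Cldn12* (-0.30) and *F11r* (-0.14) overlapped between the genotypes (p = 0.3 for each in the exact permutation test, 0.3 after adjustment). *Gja1* differed by -0.13 without overlap (exact permutation p = 0.1, 0.18 after adjustment), but KO3 was within 0.01 of WT3. When the median of the markers replaced the mean, every difference moved up by 0.21. The differences for *F11r* (0.07) and *Gja1* (0.08) turned positive, and those for *Cldn5* (-0.08) and *Cldn12* (-0.10) shrank. *Tjp1* (-0.47), *Ocln* (-0.30) and *Jam3* (-0.21) remained lower without overlap (exact permutation p = 0.1 for each, unadjusted). The markers are not a count of Sertoli cells. Whether their RNA per cell was altered, or whether other cells also made it, was not tested. Their median LFC was 0.69, against 1.05 for Leydig cell markers and 1.13 for macrophage markers. The differences are therefore not levels per Sertoli cell.

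**Figure D4:**
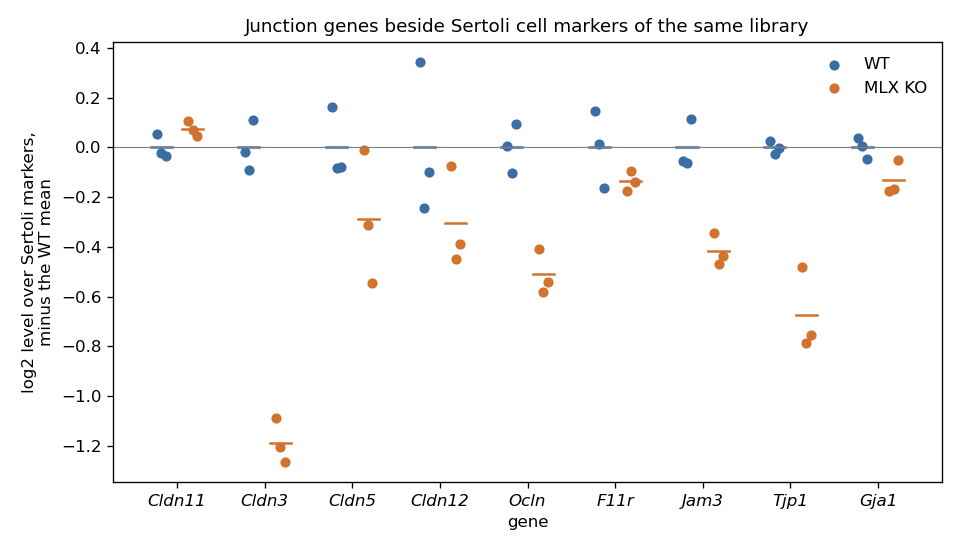
Log2 level of each junction gene over the mean of 12 Sertoli cell markers in the same library, with the WT mean of each gene set to 0 (vertical axis, log2 units), for WT (blue) and MLX KO (orange) libraries. Points are libraries and short lines are means. Over this mean of the markers the KO mean of *Cldn11* is at 0.07, that of *Cldn3* at -1.19, and those of *Tjp1*, *Ocln* and *Jam3* lie 0.42 to 0.67 below WT. Over the median log2 level of the markers in each library, which is not drawn, each difference is 0.21 higher.

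The order of the levels, as CPM per kb of exon, placed *Cldn3* and *Cldn11* first in both genotypes. In WT, *Cldn3* (39.1 ± 2.52) and *Cldn11* (38.2 ± 1.29) overlapped, followed by *Tjp1* (14.8), *Jam3* (11.5) and *F11r* (8.85). *Gja1* (5.35) and *Cldn5* (4.93) overlapped, and *Cldn12* (2.26) and *Ocln* (1.50) were lowest. In KO, *Cldn11* (66.1 ± 3.98) was separated from *Cldn3* (28.1 ± 1.09; SD, n = 3). *Tjp1* (15.3) was next, *Jam3* (14.2) and *F11r* (13.2) overlapped, and so did *Gja1* (8.06) and *Cldn5* (6.68), above *Cldn12* (2.98) and *Ocln* (1.73). With the longest annotated transcript as the length, 5 of the 9 ranks were kept in each genotype, and the top 2 and the lowest 3 genes were among them. The annotated exons of *Gja1* add up to 10257 bases and its longest transcript has 3889, so its place in the middle depends on this choice. By the longest transcript, *Cldn3* (28.1) was followed closely in KO by *Jam3* (23.3) and *Gja1* (21.3).

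The profile of *Cldn11* over the 6 libraries was most like those of *Fam102a*, *Oat* (ornithine aminotransferase), *Ctsl* (cathepsin L, one of the Sertoli cell markers), *Me2* (mitochondrial malic enzyme) and *Adam10* (a membrane protease). Their log2 CPM, each centred on its own mean over the 6 libraries, differed from that of *Cldn11* by a root mean square of 0.02 to 0.03, against a median of 0.42 over 14639 genes. Among the other junction genes, *Gja1* (0.12) and *F11r* (0.13) came closest and *Cldn3* (0.64) was farthest. All 6 libraries enter this measure, so it mainly ranks genes by their difference between the genotypes.

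The rest of the junction machinery was read from 7 lists of 105 genes, of which 76 were tested. Of these, 32 rose (42.1%, against 24.8% of all genes tested) and 6 fell (7.89%, against 20.6%), with a median LFC of 0.17. Among the 4 other claudins tested, *Cldn4*, known from other epithelia, was counted 4, 3 and 4 times in the WT and 43, 43 and 27 times in the KO libraries (LFC of 3.22, SE 0.36, edgeR adjusted p = 6.49e-05). *Cldn23* rose by 1.82 (edgeR adjusted p = 0.00155), while *Cldn10* (0.74, edgeR adjusted p = 0.173) and *Cldn13* (-0.19, edgeR adjusted p = 0.352) did not pass. Even after the rise, *Cldn4* held 0.987% of the claudin sum and *Cldn23* 1.05%, far less than *Cldn3*.

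Of 9 other membrane proteins of the tight junction, 4 rose (44.4%, against 24.8% of all genes tested) and none fell. *Jam2*, the partner to which JAM-C binds, went from 21.8 ± 0.249 to 47.5 ± 5.51 CPM (SD, n = 3), with an LFC of 1.12 (SE 0.09, edgeR adjusted p = 7.03e-06), above the 0.58 of *F11r* and the 0.30 of *Jam3*. *Igsf11* (0.19), *Marveld1* (0.52) and *Esam* (0.62) passed with edgeR adjusted p of 0.0122, 0.0334 and 0.0384. With DESeq2 and the pair as a block, those 3 did not pass. The LFCs of *Cxadr* (-0.32), *Clmp* (0.18), *Igsf5* (0.27) and *Marveld3* (0.14) missed the threshold, as did *Marveld2*, which encodes tricellulin and had 1.63 CPM in either genotype.

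Of 25 scaffold and polarity genes, 7 rose and 5 fell, shares of 28% and 20% that lie near the 24.8% and 20.6% of all genes tested, and the median LFC was -0.02. The cingulin genes, whose proteins bind ZO-1, rose, *Cgnl1* by 0.61 (edgeR adjusted p = 2.42e-05) and *Cgn* by 0.68 (edgeR adjusted p = 3.04e-05), in contrast to *Tjp1* itself. *Pard6b*, of the PAR polarity complex, rose by 0.81 (edgeR adjusted p = 1.45e-04). *Ybx3*, a ZO-1-binding DNA- and RNA-binding protein abundant in germ cells, fell from 1750 to 1346 CPM (LFC of -0.38, edgeR adjusted p = 4.39e-04). The other 4 that fell, named after their values were seen, were *Prkcz* (-0.50), *Sympk* (-0.24), *Tjap1* (-0.30) and *Mpp5* (-0.17). With library size alone, 9 rose and 3 fell, and *Tjap1* and *Mpp5* were no longer past the threshold.

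For the ectoplasmic specialization and adherens junction, 11 of 14 genes rose (78.6%, against 24.8% of all genes tested), with a median LFC of 0.34. *Itga6* (0.91), *Eps8* (0.94), *Ctnna1* (0.88) and *Itgb1* (0.67), an integrin pair, an actin-bundling protein and a catenin, were those with the lowest adjusted p (edgeR, from 7.98e-06 to 3.59e-05), and each LFC was above the 0.59 of *Gja1*. The only gene of the list that fell, *Rai14*, an actin-binding protein, was named after its values were seen (LFC of -0.32, edgeR adjusted p = 8.36e-04). *Nectin1*, *Nectin2* and *Nectin3* were not analysed here.

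*Gja1* stood apart from most of its family by its own test only, since a difference between connexins was not tested. Of 10 other connexin and pannexin genes, 1 rose (10%, against 24.8% of all genes tested) and none fell (against 20.6%). That gene was *Panx1* (LFC of 0.59, edgeR adjusted p = 0.0441, from 1.64 to 2.46 CPM), and in 11 of 14 alternative fits it did not pass. The other 9 missed the threshold, among them *Gjc1* (-0.12), *Panx2* (-0.13), *Gja6* (0.04), *Gjd3* (-0.08), *Gja4* (-0.04) and *Gja5* (0.00), and none of the 10 reached 15 CPM in either genotype. Of 5 desmosome genes, 1 rose (20%, against 24.8% of all genes tested) and none fell. That gene was *Pkp2* (0.42, edgeR adjusted p = 0.0437), which passed in 4 of 14 alternative fits only. *Pkp3* (-0.58, edgeR adjusted p = 0.0577), *Jup* (0.07), *Pkp4* (-0.02) and *Dsp* (0.02) did not pass.

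Among 9 tested regulators of the barrier, 6 rose (66.7%, against 24.8% of all genes tested) and none fell, with a median LFC of 0.61. *Gata1* (0.87, edgeR adjusted p = 1.32e-04), a Sertoli cell transcription factor, and *Tgfb3* (0.62, edgeR adjusted p = 8.19e-04), a cytokine that loosens the barrier, rose in every pair. The matrix proteases *Mmp9* (1.69, edgeR adjusted p = 0.00121) and *Mmp2* (1.17, edgeR adjusted p = 0.0304) and the transcription factor *Sox8* (0.47, edgeR adjusted p = 0.00518) rose as well, the proteases from under 1 CPM. The *Mmp2* value rested on KO3, without which the LFC was 0.62 (edgeR adjusted p = 0.162), and the call was lost in 5 of 14 alternative fits (without KO3, WT1, WT2 or WT3, and in DESeq2 with the pair as a block). *Tgfb2* (0.52), *Etv5* (0.05) and *Il1a* (0.14) did not pass.

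Markers of the other cell types moved in different directions, to be read beside the 24.8% higher and 20.6% lower among all genes tested. All 8 Leydig cell markers (876 to 904 CPM in WT, 1871 to 2469 CPM in KO) and 7 macrophage markers (70.5 to 74.1 CPM and 129 to 137 CPM) were higher, as were 4 of 6 peritubular myoid cell markers, with 1 lower (310 to 369 CPM and 309 to 325 CPM). Among germ cells, 2 of 8 spermatogonium markers were higher (25%, near the 24.8% of all genes tested) and 1 lower (142 to 145 CPM and 157 to 168 CPM). Of 9 spermatocyte markers 7 were lower (1743 to 1797 CPM and 1525 to 1600 CPM), and 7 of 7 round spermatid markers were lower (1413 to 1449 CPM and 1193 to 1257 CPM). With library size alone, 1 spermatocyte and 3 round spermatid markers were still lower. *Cldn3* was the only one of the 9 genes with an LFC below 0. Its value of -0.48 lay between the median of the round (-0.25) and of the elongating spermatid markers (-0.55). That position does not place its RNA in any cell type. Every marker with a row in the table passed the filter on low counts, and the part of any of these cell types in the levels of the 9 junction genes was not tested.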

How the data were processed

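RNA of whole testes from 3 WT and 3 MLX KO males, sequenced as 6 libraries, was analysed from the table of raw read counts per gene symbol that the authors deposited. Reads were aligned to mm10 with TopHat according to the study's methods, and the submitters' processing notes also list bcl2fastq 1.8.4, Bowtie2, DESeq2 and bedtools. The counting tool, annotation and strandedness are not given in the sources used here. The table also holds the authors' own comparison (mean, fold change with its error, test score, p-values), which was not used. ChIP-Seq samples were not analysed here. Of 17933 rows, 2 repeated another row and were used once.

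Counts were tested with edgeR 4.0.16 in R 4.3.3 (default filter with a minimum count of 10, TMM, genotype alone in the model, two-sided quasi-likelihood test, Benjamini-Hochberg over 14640 genes, threshold 0.05). Log2 CPM used a prior count of 2. Exon lengths and gene positions came from GENCODE on mm10 and promoters from RefSeq GRCm38.p6. Levels relative to Sertoli cell markers and claudin shares were compared with two-sided exact permutation tests over the 6 libraries. The code was tested on simulated data. Pairing: the sample titles call the replicates paired and the study describes 3 littermate pairs. Deviations from the group means correlated at 0.145, 0.0363 and 0.121 between same-numbered libraries. Between WT and KO libraries of different numbers, the correlations ranged from -0.123 to 0.033. As alternatives, the pair entered edgeR and DESeq2 1.42.0 as a block, DESeq2 was also run without it, TMM was replaced by upper quartiles, by the size factors of DESeq2 or by library size alone, the filter was dropped or set to 1 CPM in 3 or more libraries, and 1 library at a time was omitted. The 9 genes and all lists were chosen with earlier results of these data known. Genes of the other lists were named by a rule: the 4 with the lowest adjusted p among those that passed, every gene of a list with up to 10 tested, and exceptions as stated. Some genes that this rule names are not reported here. *Rhox5* and *Adgre1*, also on marker lists, were not analysed here. Intervals and p-values cover the spread among 3 animals per genotype.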

Additional observations from a re-analysis of the deposited data

How the results depend on the processing

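Across the 14 alternative fits, *Cldn11*, *F11r*, *Jam3* and *Gja1* remained higher and *Cldn3* lower past the threshold, and none of the 9 genes changed direction. The number of the 9 genes that rose was 6, and between 4 and 8 in the alternatives (8 with library size alone, 4 with DESeq2, 4 with DESeq2 and the replicate block, and 4 to 6 on leaving out 1 library), and the number that fell was 1 throughout. With the replicate block in edgeR, 6 rose and 1 fell, and the block changed no call of the 9 genes in edgeR. In the 7 lists, 32 genes rose and 6 fell, against 31 and 6 with the block in edgeR, 23 and 5 with the block in DESeq2, and 25 to 33 and 5 to 7 on leaving out 1 library. All 12 Sertoli cell markers rose in each of these fits. Relative to the median in place of the mean of the Sertoli cell markers, all 9 differences moved up by 0.207. Those of *F11r* (0.0702) and *Gja1* (0.0752) were then above 0, that of *Cldn11* was 0.281 without overlap against 0.0744 with overlap, and *Ocln* (-0.303), *Jam3* (-0.211), *Cldn5* (-0.0825) and *Cldn12* (-0.0975) shrank by over 1.5 times. The share of *Cldn12* among claudins differed by 0.164 percentage points, by -0.0482 without division by length, and by -0.00386 to 0.450 on leaving out 1 library. With the longest transcript as length, 5 of 9 ranks were kept in WT and 5 of 9 in KO. The cause of these changes was not tested. With 3 libraries a genotype, the exact tests cannot fall below p = 0.1, and paired differences not below 0.25.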
